A study of Mus musculus with 3 samples.

Results

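Lipid-associated macrophages are phagocytes described in fat, atherosclerotic vessels and fatty or injured liver, and 10 genes that mark them are described here: Trem2, Gpnmb, Spp1, Cd9, Cd63, Lgals3, Apoe, Mmp12, Ctsl and Syngr1. They were chosen by symbol, and all 10 were found among 53802 gene identifiers in the deposited matrices. The cells were Ly6Chi monocytes sorted from mouse livers injured by acetaminophen, a drug that kills hepatocytes when overdosed. The knockout library, numbered 4 in the labels, came from LysMDCommd10 mice, which lose Commd10 in cells of the myeloid lineage through Cre driven from LysM, the Lyz2 locus. The 2 control libraries, numbered 1 and 3, came from Commd10fl/fl mice with floxed, undeleted alleles. All groups were male C57BL/6 mice of 8 weeks given acetaminophen intraperitoneally at 300 mg/kg after a fast of 12 h, with chow back 2 h later and livers taken at 24 h. The labels do not say how many mice a library pooled, so p-values for knockout against control reflect library-to-library spread alone, which may be technical. Comparisons between groups of cells use a library term, and their p-values reflect how far those differences vary from library to library. COMMD10 belongs to a protein family that takes part in endosomal sorting.

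In these macrophages TREM2, a surface receptor, binds lipids and lipoproteins and signals through the adaptor TYROBP. Engulfed lipid is broken down in lysosomes, where cathepsins act, and is stored or exported on particles that carry apolipoprotein E. Factors of the MiT/TFE family switch on many lysosomal genes through E-box elements, and AP-1 factors act at many macrophage promoters.

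The droplet 3' libraries held 5152 barcodes in knockout 4, 4814 in control 1 and 8109 in control 3, beside 5229, 4860 and 8149 cells that the design text states for the same libraries. After filtering, 4457, 4115 and 7449 cells were left, with a median of 6865, 8770 and 8160 unique molecular identifiers (UMIs) each, so the knockout cells were the shallowest. From 2 to 19 barcodes were shared between any pair of libraries. Commd10 was at 8.41 UMIs per 1000000 (CPM) in knockout 4, against 17.6 and 10.3 CPM in control 1 and control 3, and 3' reads may lie outside the deleted part. Lyz2, which holds the Cre, was at 6450 CPM in knockout 4, against 15367 and 11562 CPM in control 1 and control 3. The controls themselves differed.

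Cells were placed in gates by marker UMIs, none of them from the 10 genes. A cell went to the first gate it met, in the order lymphocyte, neutrophil, patrolling-marker (at least 2 of Ace, Spn, Treml4, Eno3 and Adgre4), Arg1, C1q, MHC class II and Ly6C-high monocyte, and the rest stayed ungated. Myeloid cells are all but the lymphocyte and neutrophil gates, and they numbered 4401 in knockout 4, 4052 in control 1 and 7371 in control 3. In the myeloid gates the knockout, control 1 and control 3 libraries held 1000, 1556 and 2658 patrolling-marker cells, 1356, 396 and 232 Arg1 cells, 399, 550 and 913 C1q cells, 190, 193 and 578 MHC class II cells, 1272, 965 and 2613 Ly6C-high cells and 184, 392 and 377 ungated cells. The patrolling-marker gate was mixed: in knockout 4 it also held 298 CPM of Ly6c2, 216 CPM of C1qa and 3647 CPM of Cd74. That gate counts detected markers without scaling to depth. Its median UMIs per cell were 7003 in knockout 4, 9533.5 in control 1 and 9611.5 in control 3. In the Ly6C-high gate they were 6889, 8355 and 7592, and the part of depth in the gate numbers was not tested. The sort was for Ly6Chi cells, yet Ly6c2 was at 426 CPM in the Arg1 gate of knockout 4, against 1076 CPM in its Ly6C-high gate. Kupffer cell markers Clec4f and Timd4 lay at or below 0.364 CPM in the myeloid cells of every library. With Vsig4, Cd5l, Folr2 and Marco, all 6 Kupffer markers summed to 4.80 CPM in knockout 4, against 9.22 and 4.48 CPM in control 1 and control 3. In the C1q gate these 6 summed to 8.99 CPM in knockout 4, against 42.6 and 18.9 CPM in control 1 and control 3.

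Promoter sequence was examined for 2 elements, the E-box CACGTG of lysosomal genes and the AP-1 element TGANTCA, each on both strands. Where CACGTG is followed by ANTCA both patterns match and share the letters TG. Of 32851 RefSeq promoter windows, 7.15% held the first and 7.81% the second. Of 14 windows for the 10 genes, the E-box was found in 1 (Ctsl) and the AP-1 element in 3 (Trem2, Gpnmb and 1 of the Mmp12 starts). The 4 windows are shown because they hold these matches, in capitals, beside genes whose levels are compared below. They run from 250 bases before the start to 20 bases into the transcript, on build GRCm38.p6: Trem2 at chr17:48346151-48346420 (plus strand), Gpnmb at chr6:49036268-49036537 (plus), Mmp12 at chr9:7347124-7347393 (plus) and Ctsl at chr13:64370501-64370770 (minus).
Trem2: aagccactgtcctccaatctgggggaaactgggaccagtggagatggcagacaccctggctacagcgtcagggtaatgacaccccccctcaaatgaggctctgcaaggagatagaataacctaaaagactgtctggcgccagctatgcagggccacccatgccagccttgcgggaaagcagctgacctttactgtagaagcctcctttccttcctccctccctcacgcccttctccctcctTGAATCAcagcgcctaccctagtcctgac
Gpnmb: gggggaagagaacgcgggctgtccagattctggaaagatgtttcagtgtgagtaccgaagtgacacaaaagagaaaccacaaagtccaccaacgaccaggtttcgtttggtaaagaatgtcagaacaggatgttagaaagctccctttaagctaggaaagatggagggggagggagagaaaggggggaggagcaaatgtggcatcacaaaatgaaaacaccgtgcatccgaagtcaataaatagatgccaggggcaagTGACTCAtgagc
Mmp12: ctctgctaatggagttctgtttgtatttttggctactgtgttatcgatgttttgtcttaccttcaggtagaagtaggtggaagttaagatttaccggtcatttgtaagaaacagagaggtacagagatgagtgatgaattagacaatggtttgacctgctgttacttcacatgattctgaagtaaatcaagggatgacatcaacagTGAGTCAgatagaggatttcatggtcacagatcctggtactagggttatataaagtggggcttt
Ctsl: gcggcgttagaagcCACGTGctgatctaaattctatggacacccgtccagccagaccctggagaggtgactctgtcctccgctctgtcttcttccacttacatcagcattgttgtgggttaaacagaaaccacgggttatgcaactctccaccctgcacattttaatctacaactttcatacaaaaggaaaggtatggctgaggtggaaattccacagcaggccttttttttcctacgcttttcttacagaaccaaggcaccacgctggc
The Trem2 match begins 9 bases before the start and the Mmp12 match 44 bases before it. The Ctsl match begins 236 bases before its start, and the Gpnmb match begins at base 9 of the transcript. A match is a description of letters and not a bound site. Trem2 (ENSMUSG00000023992) lies at chr17:48346401-48354147, Gpnmb (ENSMUSG00000029816) at chr6:49036546-49070929, Spp1 (ENSMUSG00000029304) at chr5:104435118-104441050 and Cd9 (ENSMUSG00000030342) at chr6:125460266-125494791. Cd63 (ENSMUSG00000025351) lies at chr10:128900989-128912822, Lgals3 (ENSMUSG00000050335) at chr14:47367751-47386160 and Apoe (ENSMUSG00000002985) at chr7:19696109-19699188. Mmp12 (ENSMUSG00000049723) lies at chr9:7344381-7369499, Ctsl (ENSMUSG00000021477) at chr13:64359337-64370890 and Syngr1 (ENSMUSG00000022415) at chr15:80091334-80119501. All 10 are protein-coding, and these gene bounds come from GENCODE M21 on GRCm38.

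The first comparison asked in which of the sorted cells the signature was found. All 10 genes were higher in the Arg1 gate than in the Ly6C-high gate, by a median of 1.65 on the log2 scale, against 0.01 over all 10902 genes tested. In the C1q gate 9 of 10 were higher, in the ungated cells 10 of 10, in the MHC class II gate 7 of 10 and in the patrolling-marker gate 5, with 3 lower. Over all genes tested 19.2% were called higher in the Arg1 gate, 17.9% in the C1q gate, 13.9% in the ungated cells, 10.5% in the MHC class II gate and 10.2% in the patrolling-marker gate, where 11.0% were called lower. Each gate was tested against the Ly6C-high gate of the same 3 libraries with edgeR's quasi-likelihood test, a library term and Benjamini-Hochberg adjustment at 0.05. Gates are groups cut from a marker level, and from 1790 to 2661 cells per library lay within a factor of 2 of the Ly6C threshold.

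**Figure D1:**
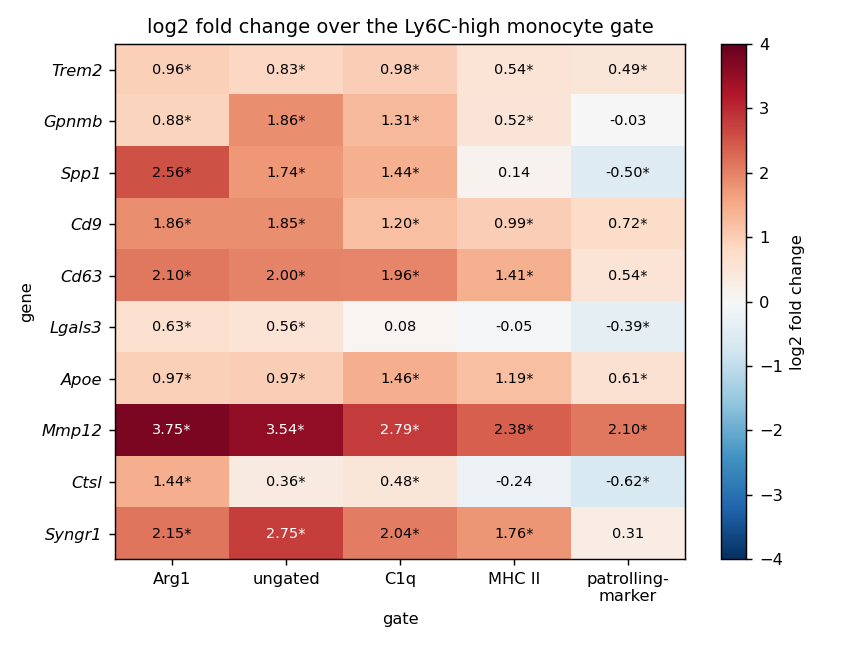
Log2 fold change of each gene (rows) in each gate (columns) over the Ly6C-high monocyte gate, from 3 libraries, with an asterisk where the adjusted p was under 0.05. All 10 genes carry an asterisk in the Arg1 and ungated columns, and Spp1, Lgals3 and Ctsl are negative in the patrolling-marker column.

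Among secreted products, Spp1 encodes osteopontin, a matrix protein and cytokine. In the Arg1 gate Spp1 was at 2574 CPM in knockout 4, 2153 CPM in control 1 and 1986 CPM in control 3, against 473, 386 and 294 CPM in the Ly6C-high gates of the same libraries. The ranges lie far apart in every library, and the fold change was 2.56 ± 0.15 (log2, standard error (SE), n = 3 libraries; adjusted p = 3.18e-12). In the C1q gate Spp1 rose by 1.44 ± 0.15 (adjusted p = 5.01e-08), whereas in the patrolling-marker gate it fell by 0.50 (SE 0.15, adjusted p = 0.0151). That call was lost by DESeq2 (adjusted p = 0.112), with doubled thresholds, without the library term, and without control 3 (adjusted p = 0.0864) or knockout 4 (adjusted p = 0.0538). Apoe, the lipid carrier, was at 7300 CPM in knockout 4, 5764 CPM in control 1 and 8500 CPM in control 3 in the C1q gate, against 1860, 2288 and 3960 CPM in the Ly6C-high gates. Its 1.46 ± 0.10 was the largest Apoe fold change of the 5 gates (adjusted p = 1.17e-10). Mmp12 encodes macrophage elastase, and its fold changes of 2.10 to 3.75 rest on few UMIs: the Arg1 gates held 11.7, 17.2 and 7.05 CPM in knockout 4, control 1 and control 3, against 1.07, 0.747 and 0.743 CPM in the Ly6C-high gates. In the patrolling-marker gate the Mmp12 value lay between 1.24 and 2.47 with a library left out, and the call was lost without control 1 (adjusted p = 0.103). In the MHC class II gate the call was lost without control 1 (adjusted p = 0.0603) or control 3 (adjusted p = 0.0845).

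Of the surface proteins, Cd9 and Cd63 encode tetraspanins, which organise other proteins in membranes, Cd63 mainly in late endosomes and lysosomes. Cd63 in the Arg1 gate was at 400 CPM in knockout 4, 439 CPM in control 1 and 378 CPM in control 3, against 97.8, 102 and 82.2 CPM in the Ly6C-high gates. Its fold changes were 2.10 ± 0.08 in the Arg1 gate, 2.00 ± 0.08 in ungated cells and 1.96 ± 0.08 in the C1q gate (adjusted p = 1.08e-15, 2.39e-14 and 4.76e-15 in the same order). Cd9 rose by 1.86 ± 0.10 in the Arg1 gate (adjusted p = 1.05e-12) and by 0.72 ± 0.10 in the patrolling-marker gate (adjusted p = 8.50e-06). Trem2 moved less: it rose by 0.98 ± 0.07 in the C1q gate and 0.96 ± 0.07 in the Arg1 gate, with adjusted p = 3.23e-10 and 2.86e-10. Across the 5 gates its fold changes lay between 0.49 and 0.98.

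Gpnmb, a lysosomal and surface glycoprotein known as a target of MITF, had its largest fold change in cells that no marker gate took. In ungated cells Gpnmb was at 360 CPM in knockout 4, 500 CPM in control 1 and 409 CPM in control 3, against 107, 119 and 122 CPM in the Ly6C-high gates. The rise was 1.86 ± 0.12 (adjusted p = 4.61e-11), next to 1.31 ± 0.12 in the C1q gate and 0.88 ± 0.12 in the Arg1 gate. Syngr1, a small vesicle membrane protein named for synaptic vesicles, also had its largest fold change there, 2.75 ± 0.23 (adjusted p = 1.87e-09). Ctsl, a lysosomal cysteine protease, was at 1027, 740 and 756 CPM in the Arg1 gates of knockout 4, control 1 and control 3, against 404, 292 and 243 CPM in the Ly6C-high gates, a rise of 1.44 ± 0.09 (adjusted p = 1.28e-11). In the patrolling-marker gate Ctsl fell by 0.62 (SE 0.09, adjusted p = 1.82e-05). Lgals3 encodes galectin-3, which binds sugars on damaged vesicles and cell surfaces, and it was present in nearly all cells: it rose by 0.63 ± 0.06 in the Arg1 gate, and its 0.08 ± 0.06 in the C1q gate did not pass (adjusted p = 0.308). It did pass there with doubled thresholds (0.19, adjusted p = 0.0196) and without knockout 4 (0.16, adjusted p = 0.0146). Calls were also lost for Ctsl in ungated cells and for Gpnmb in the MHC class II gate when control 1 (adjusted p = 0.184 and 0.0988) or control 3 (adjusted p = 0.178 and 0.161) was left out.

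Other genes of the pathway were read in the same gates from lists chosen for these functions. The lists were drawn up with earlier results of these data known, so their counts are descriptions. Of 10902 genes tested in all, 2095 were called higher and 2074 lower in the Arg1 gate. In the C1q gate 1952 were higher and 1805 lower, and in ungated cells 1514 and 1493. All 12 lipid handling genes were called higher in the Arg1 gate and in ungated cells, and 11 of 12 in the C1q gate. Among them the fatty acid receptor Cd36 rose by 3.23 ± 0.13 in the Arg1 gate and the lipid droplet coat Plin2 by 1.07 ± 0.08. Of 16 lysosome genes, 11 were higher in the Arg1 gate, 13 in the C1q gate with 1 lower, and 12 in ungated cells. The cathepsins Ctsd and Ctsb rose by 1.13 ± 0.06 and 1.08 ± 0.05 in the Arg1 gate. TREM2's own partners split: 5 of 10 rose and 4 fell in the Arg1 gate. Ms4a6d, a membrane protein of the MS4A family, rose there by 0.66 ± 0.06, and the adaptor Hcst fell by 0.50 (SE 0.10). Of 4 MiT/TFE factors, 2 rose in the Arg1 gate, Tfec by 1.04 ± 0.10 and Mitf by 1.19 ± 0.11, and 1 in the C1q gate; Mitf was named after its values were seen. The other lists in the Arg1 gate gave 4 of 6 other tetraspanins higher, 2 of 4 other galectins, 5 of 6 tested osteopontin receptors with 1 lower, 3 of 6 tested metalloproteinases and inhibitors with 1 lower, and none of the 3 Apoe neighbours.

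The second comparison was the study's own, knockout against control, over all myeloid cells. None of the 10 genes passed edgeR's quasi-likelihood test at an adjusted p of 0.05, 4 had an unadjusted p under 0.05, as did 8.35% of all genes, and DESeq2 called 1, Ctsl, where it called 119 of all genes, 0.805%. By edgeR 23 of all 14789 genes were called, 0.156%, 22 of them higher and 1 lower. There is a single knockout library, so it is assumed to vary like the 2 controls. In sums over all myeloid cells taken alone, fewer cells of a type and less RNA per cell cannot be told apart. Cell numbers per gate are given above, and levels within gates below.

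**Figure D2:**
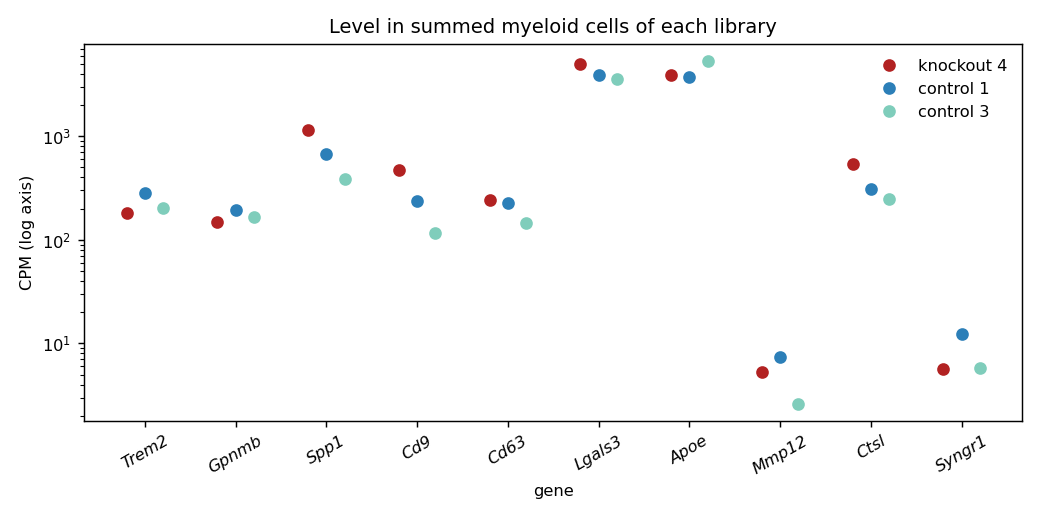
CPM of each gene in the summed myeloid cells (log axis), with knockout 4 to the left of control 1 and control 3; each point is 1 library. Spp1, Cd9 and Ctsl have the knockout point well above both controls, and Trem2 and Gpnmb have it below both.

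Spp1, Cd9, Cd63, Lgals3 and Ctsl were above both controls, 5 of 10 against 36.0% of all genes, and Trem2, Gpnmb and Syngr1 were below both, 3 of 10 against 36.9%. These shares are near the background. Cd9 was at 469 CPM in knockout 4, against 238 CPM in control 1 and 117 CPM in control 3, a fold change of 1.41 ± 0.36 (adjusted p = 0.343). The controls differed by 1.02 on the same scale, control 3 being the lower. Spp1 was at 1139 CPM in knockout 4, against 667 and 383 CPM in control 1 and control 3 (1.12 ± 0.29, adjusted p = 0.372). Without the Arg1-gated cells, of which knockout 4 had the most, the Spp1 value became 0.35 and that of Cd9 1.07.

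Ctsl was at 540 CPM in knockout 4, against 308 and 249 CPM in control 1 and control 3, a fold change of 0.96 ± 0.17 with an adjusted p of 0.158 by edgeR and 0.00342 by DESeq2. Without the Arg1-gated cells it became 0.44. Lgals3 was at 4940 CPM in knockout 4, against 3900 and 3594 CPM in the controls, and the 0.40 ± 0.15 did not pass (adjusted p = 0.545). Cd63 at 241 CPM in knockout 4 lay just above control 1 at 227 CPM, with control 3 at 145 CPM.

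Trem2 was at 180 CPM in knockout 4, against 284 CPM in control 1 and 201 CPM in control 3, a value of −0.43 ± 0.23 (adjusted p = 0.660). Gpnmb was at 147 CPM in knockout 4, against 194 and 168 CPM (−0.30 ± 0.17, adjusted p = 0.671). Apoe in knockout 4, 3905 CPM, lay between control 1 at 3694 CPM and control 3 at 5306 CPM. The hepatocyte transcript Alb was at 13.8 CPM in knockout 4, against 10.8 and 33.4 CPM in control 1 and control 3, and all 8 hepatocyte markers summed to 175 CPM in knockout 4, against 128 and 238 CPM. Alb follows the order of Apoe, a gene hepatocytes also express, and its part in the Apoe values was not tested. Mmp12 and Syngr1 were scarce, with 5.26 and 5.71 CPM in knockout 4, against 7.40 and 12.3 CPM in control 1 and 2.63 and 5.81 CPM in control 3.

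Platelets also carry Cd9, and all 5 platelet markers summed to 381 CPM in knockout 4, against 167 and 131 CPM in control 1 and control 3. Most of this was Pf4. Ppbp was at 29.4 CPM in knockout 4, against 2.99 and 2.98 CPM in control 1 and control 3, while Treml1, Gp9 and Itga2b each lay at or below 0.309 CPM in every library. Cells with a UMI of Ppbp, Treml1, Gp9 or Itga2b were 3.59% of myeloid cells in knockout 4, against 1.78% and 1.86% in control 1 and control 3. Without them the Cd9 fold change was 1.38.

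The same lists were read in the knockout comparison. By edgeR's quasi-likelihood test the MiT/TFE factor Tfec was the 1 gene of the lists that was called: it was at 64.0 CPM in knockout 4, against 25.3 and 22.6 CPM in control 1 and control 3 (1.42 ± 0.15, adjusted p = 0.0324), and the adjusted p no longer passed without the Arg1-gated cells, where its fold change was 1.08. Its relative Tfeb was at 45.2 CPM in knockout 4, against 53.9 and 52.1 CPM. Of 12 lipid handling genes 9 lay above both controls and edgeR called none: Plin2 was at 926 CPM in knockout 4, against 587 and 591 CPM (0.65 ± 0.14, adjusted p = 0.253), and Cd36 at 215 CPM, against 117 and 60.1 CPM (1.29 ± 0.34, adjusted p = 0.371). Of 16 lysosome genes 8 lay above both and edgeR called none, with Ctsk at 5.54 CPM in knockout 4, against 4.51 and 2.68 CPM, and the proton pump subunit Atp6v0d2 at 2.72 CPM, against 1.23 and 0.449 CPM. The median log2 values of these 3 lists were 0.165, 0.15 and 0.15, with 0.23 for the 10 signature genes and −0.01 over all genes.

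Without the low-count filter edgeR also called Plin2, Cd36 and Atp6v0d2. Among TREM2 partners edgeR called none. Ms4a6d was at 540 CPM in knockout 4, against 284 and 349 CPM in control 1 and control 3, with 0.77 ± 0.17 and an adjusted p of 0.261 by edgeR and 0.0497 by DESeq2. Hcst was at 49.6 CPM in knockout 4, against 53.9 and 73.2 CPM. The tetraspanin Cd53 was at 615 CPM in knockout 4, against 407 and 420 CPM, and Tspan4 at 7.62 CPM, against 11.4 and 8.56 CPM, neither called by edgeR. The osteopontin receptor Cd44 was at 734 CPM in knockout 4, against 459 and 467 CPM (0.66 ± 0.14), and edgeR called it only without the low-count filter. The integrin chain Itga4 was at 200.1 CPM in knockout 4, against 235 and 292 CPM. The galectin Lgals8 was at 67.0 CPM in knockout 4, against 44.3 and 63.7 CPM, and the galectin ligand Lgals3bp at 72.9 CPM, against 86.3 and 88.4 CPM. Of the Apoe neighbours Apoc1 was at 32.1 CPM in knockout 4, against 39.4 and 51.7 CPM, and Apoc2, at 4.39 CPM, against 3.58 and 1.19 CPM, had a wider gap between the controls than to the nearer one. The protease inhibitors had values of opposite sign, which edgeR did not call and DESeq2 did (adjusted p = 0.00250 for Timp1 and 0.00805 for Timp2). Timp1 was at 13.4 CPM in knockout 4, against 4.83 and 4.25 CPM in control 1 and control 3 (1.57 ± 0.22, adjusted p = 0.0815), and Timp2 at 22.9 CPM, against 43.2 and 49.2 CPM (−1.01 ± 0.17, adjusted p = 0.124). Without cells holding a platelet marker edgeR called Timp1 too (adjusted p = 0.0486), and without the low-count filter it called Ms4a6d, Timp1 and Timp2. The medians of these 6 lists lay between −0.47 and 0.22.

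Within single gates the genotype comparison gave 4 calls among the 10 genes, 3 of them for Cd9 and 1 for Spp1. The calls depended on how gates were drawn: in the Arg1 gate 1 of the 10 was called as reported, 4 with halved thresholds (Cd9, Ctsl, Syngr1 and Trem2), 2 with doubled thresholds (Cd9 and Ctsl) and 6 with at least 3 patrolling markers (those 4 with Spp1 and Lgals3), where all genes called numbered 175, 442, 149 and 451. Cd9 was above both controls in all 6 gates, as were 5.34% of the 10902 genes. In the Arg1 gate Cd9 was at 755 CPM in knockout 4, against 389 CPM in control 1 and 318 CPM in control 3, a rise of 1.11 ± 0.14 (edgeR adjusted p = 0.00915), where 1.74% of all genes were called. In the Ly6C-high gate it was at 242 CPM in knockout 4, against 119 and 64.7 CPM (1.41 ± 0.26, adjusted p = 0.0316), where 0.444% were called. In ungated cells it was at 816 CPM, against 412 and 263 CPM (1.29 ± 0.19, adjusted p = 0.000589), where 0.833% were called. The Arg1 call was kept under each other gate threshold and by DESeq2, while the Ly6C-high call was lost by DESeq2, with halved thresholds and with at least 3 patrolling markers, and the ungated call under each alternative that tested it.

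**Figure D3:**
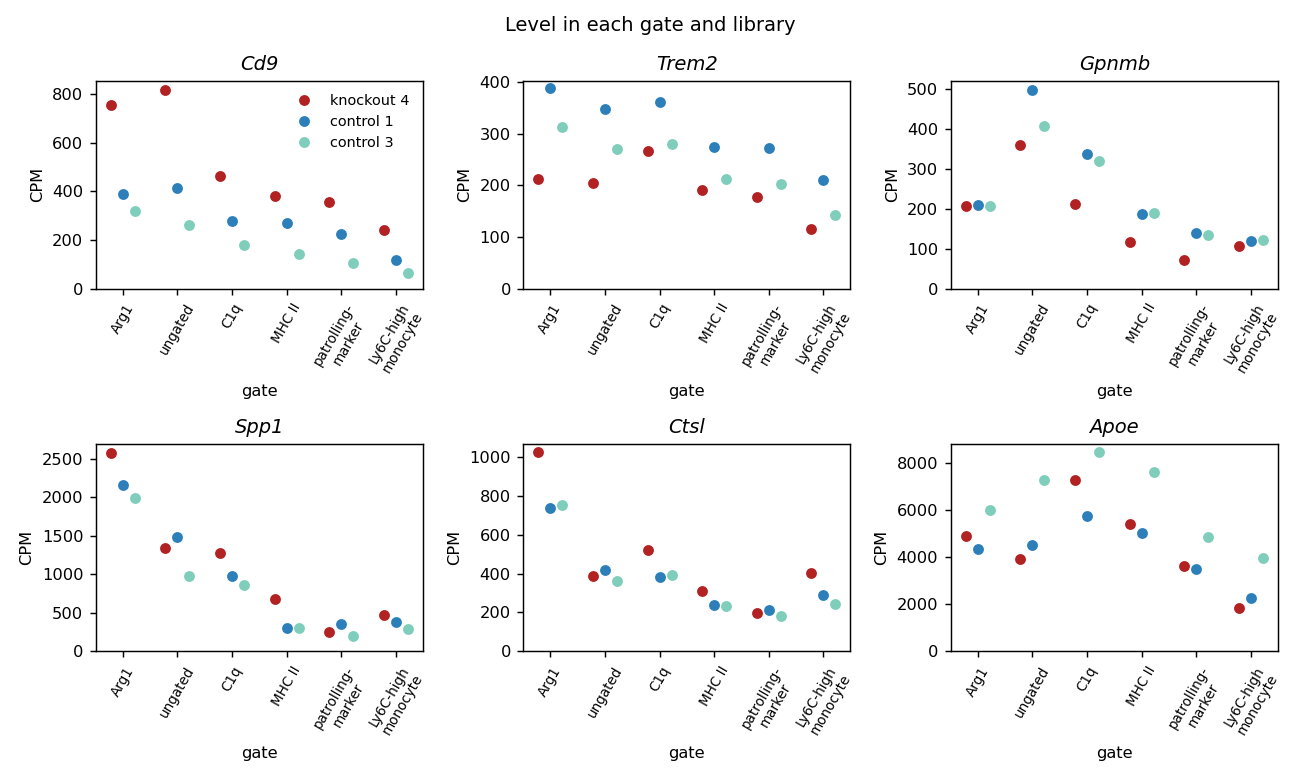
CPM of 6 genes in each gate (horizontal axis), with knockout 4 left of control 1 and control 3; each point is 1 library. In the Cd9 panel the knockout point is the highest of its gate 6 times, and in the Trem2 panel it is the lowest 6 times.

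Cd9 in the other gates did not pass, except in the MHC class II gate with halved thresholds (1.20, adjusted p = 0.0246). It was at 463 CPM in knockout 4, against 278 and 178 CPM in control 1 and control 3, in the C1q gate, and at 382 CPM, against 270 and 144 CPM, in the MHC class II gate. In the patrolling-marker gate it was at 355 CPM, against 223 and 106 CPM. The fold changes were 1.02 ± 0.24, 0.91 ± 0.28 and 1.12 ± 0.33, so the values of the 6 gates lay between 0.91 and 1.41, and control 1 was above control 3 in each. The platelet marker sum in knockout 4 was 993 CPM in the Arg1 gate, against 549 and 554 CPM in the controls, 357 CPM in ungated cells, against 168 and 290 CPM, and 55.6 CPM in the Ly6C-high gate, against 35.7 and 54.5 CPM. The platelet sum, which over all myeloid cells was mostly Pf4, was above both controls in each gate with a Cd9 call, in the Ly6C-high gate only just. In the C1q gate it was at 325 CPM in knockout 4, against 372 and 339 CPM in control 1 and control 3. In the MHC class II gate it was at 134 CPM, against 222 and 165 CPM, and in the patrolling-marker gate at 97.9 CPM, against 104 and 88.4 CPM. Its part in the Cd9 values within gates was not tested.

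In CPM, Trem2 and Gpnmb were below both controls in all 6 gates, as were 5.33% of genes. For Trem2 the values lay between −0.70 ± 0.16 in the Arg1 gate (adjusted p = 0.0689) and −0.27 ± 0.19 in the C1q gate, and none passed. Trem2 in the Arg1 gate was at 213 CPM in knockout 4, against 389 and 312 CPM in control 1 and control 3, and halved thresholds or at least 3 patrolling markers brought its adjusted p under 0.05. Gpnmb was at 71.6 CPM in knockout 4, against 139 and 134 CPM in control 1 and control 3, in the patrolling-marker gate, a value of −0.93 ± 0.17 that edgeR did not call (adjusted p = 0.157) and DESeq2 did. Gpnmb was alike in the 3 Arg1 gates, with 206 CPM in knockout 4, against 210 and 208 CPM. Its fitted fold change there was 0.0037 ± 0.13, of positive sign.

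Spp1 was called in the MHC class II gate, at 684 CPM in knockout 4, against 307 and 308 CPM in control 1 and control 3 (1.15 ± 0.18, adjusted p = 0.0184), where 0.165% of genes were called. The call was lost with halved and with doubled thresholds and with at least 3 patrolling markers. For Spp1 in the Arg1 gate, the values above gave a fold change of 0.33 ± 0.10 that did not pass (adjusted p = 0.123), and with at least 3 patrolling markers it passed (0.47, adjusted p = 0.0273). Ctsl was above both controls in 4 gates, by 0.48 ± 0.11 in the Arg1 gate (adjusted p = 0.0678) and 0.60 ± 0.18 in the Ly6C-high gate, and near the controls in ungated (0.01 ± 0.16) and patrolling-marker cells (0.02 ± 0.16). In the Arg1 gate Ctsl passed with halved (adjusted p = 0.0292) and doubled thresholds (0.0498) and with at least 3 patrolling markers (0.0136). Cd63 stayed between the controls in 4 gates, and Syngr1 was below both in 5. No gene of the 10 was called in the C1q gate, where 0.0186% of genes were, or in the patrolling-marker gate, where 0.0752% were. At an unadjusted p under 0.05 there were 5 of the 10 in the C1q gate, against 5.12% of all genes, and 3 in the patrolling-marker gate, against 5.78%, and DESeq2 called 0 and 1.

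**Figure D4:**
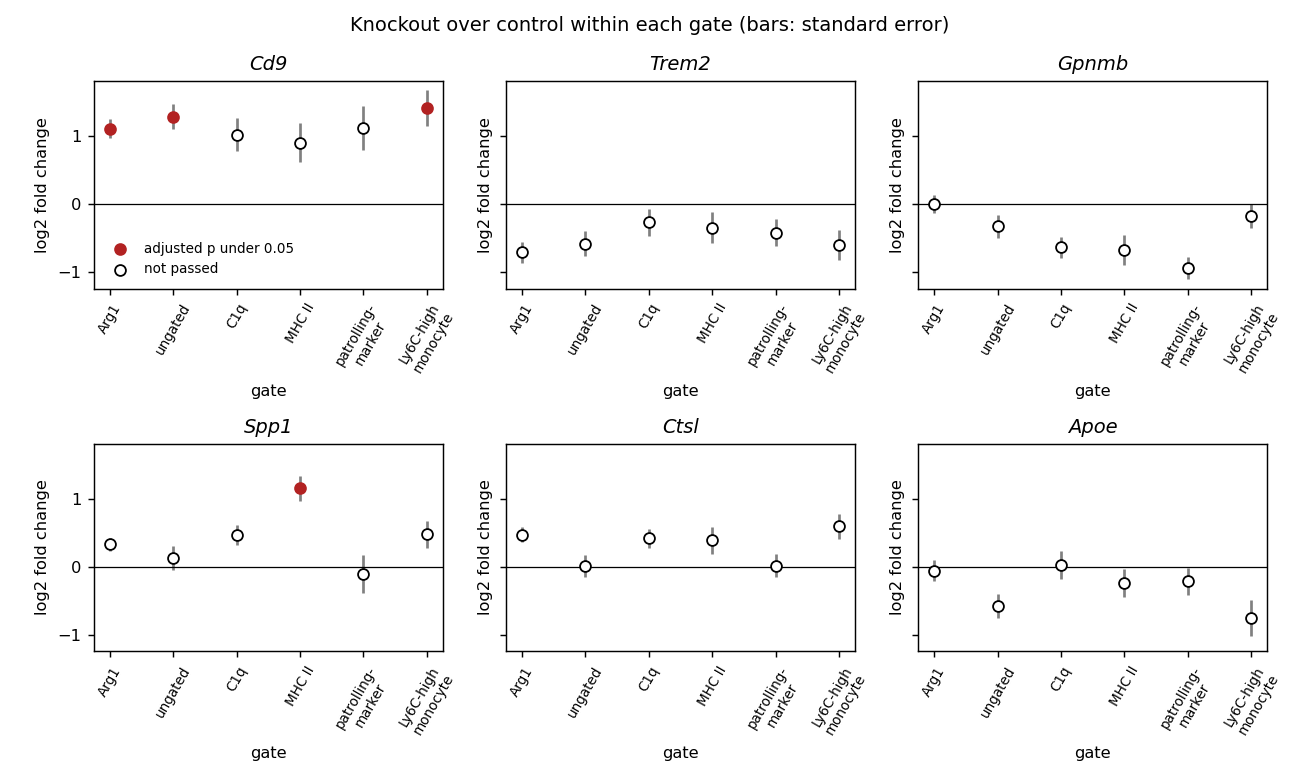
Log2 fold change of knockout over control in each gate for 6 genes; bars are standard errors, and filled points have an adjusted p under 0.05. Cd9 is positive in all 6 gates, between 0.91 and 1.41, and Trem2 negative in all 6, between −0.70 and −0.27.

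Whether the knockout effect differed between gates was tested for the C1q against the Ly6C-high gate. Of the 10 genes 1 was called, Apoe, against 0.289% of 12106 genes. In the C1q gate Apoe was at 7300 CPM in knockout 4, between 5764 and 8500 CPM in control 1 and control 3. In the Ly6C-high gate it was at 1860 CPM in knockout 4, below 2288 and 3960 CPM. The knockout effect was 0.03 ± 0.21 in the C1q gate and −0.75 ± 0.27 in the Ly6C-high gate, neither past its own test, and their difference was 0.74 ± 0.11 (edgeR adjusted p = 0.000161). For Gpnmb (−0.47 ± 0.13), Cd9 (−0.43 ± 0.13), Lgals3 (−0.31 ± 0.10) and Trem2 (0.30 ± 0.13) the difference did not pass. This fit left 1 residual degree of freedom, so its SE and p rest largely on spread pooled across genes.

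Which of the 10 genes move together was read across cells of 1 library at a time, after thinning each cell to 3000 UMIs. This left 3659, 3543 and 6679 myeloid cells of knockout 4, control 1 and control 3. Spearman's rho averaged 0.138, 0.136 and 0.122 over the 45 pairs, and from 43 to 44 pairs were positive. Neither value was computed for pairs drawn from all genes, so no background stands beside them. Cells of a library share its preparation, and genes at low counts cannot reach high values, so these numbers are descriptions and carry no p. The most correlated genes were Gpnmb with Lgals3 (0.303 in knockout 4, 0.323 in control 1 and 0.258 in control 3) and Spp1 with Cd9 (0.361, 0.261 and 0.235). Spp1 with Cd63 had 0.269, 0.271 and 0.270. Cd63 had the highest mean with the other 9 genes, 0.188, and Spp1 had 0.183.

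**Figure D5:**
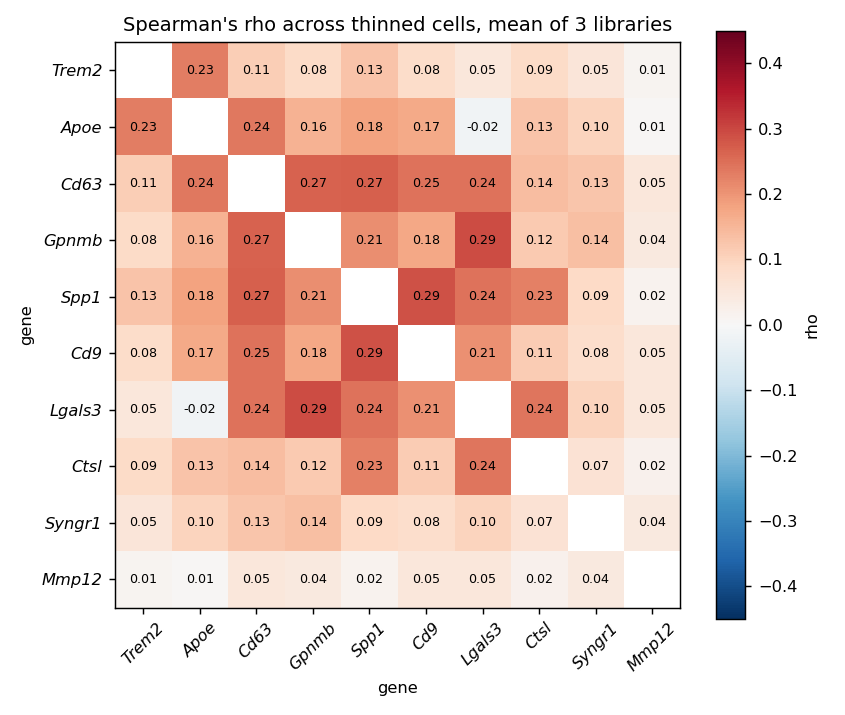
Mean Spearman's rho over 3 libraries for each pair of genes, across cells thinned to 3000 UMIs; the diagonal is blank. Cd63, Gpnmb, Spp1, Cd9 and Lgals3 share values between 0.175 and 0.295, Trem2 reaches 0.229 with Apoe, and the Mmp12 row is near 0.

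For Trem2 the highest value was with Apoe, 0.237 in knockout 4, 0.235 in control 1 and 0.215 in control 3, while its mean rho was 0.128 with Spp1, 0.112 with Cd63, 0.0849 with Gpnmb, 0.0822 with Cd9 and 0.0523 with Lgals3. Among 5571 genes ranked by mean rho with Trem2, Apoe was at rank 1, Spp1 at rank 8 and Cd63 at rank 17. Apoe and Lgals3 did not move together, with a mean of −0.02. Ctsl went with Lgals3, with 0.350 in knockout 4, 0.198 in control 1 and 0.175 in control 3, a difference that was not tested. Mmp12 had a mean rho at or below 0.0525 with every gene, on 48 thinned UMIs in knockout 4, 81 in control 1 and 44 in control 3. Within the Ly6C-high gate alone the mean over pairs was 0.103 in knockout 4, 0.124 in control 1 and 0.105 in control 3. In control 1 this is over 36 pairs, because Mmp12 had no UMI in those thinned cells.

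The genes outside the signature that were most like it included 3 lysosomal proteases. Among 5572 genes detected in at least 5% of cells of every library, the 5 with the highest mean rho to the summed signature were Ctsd (0.60), Ftl1 (0.59), Ctsb (0.55), Cstb (0.52) and Lgmn (0.50). Ctsd, Ctsb and Lgmn encode lysosomal proteases, Cstb an inhibitor of cathepsins and Ftl1 a ferritin chain, and Ftl1 is uncertain because its many near-identical copies share reads. The sum is led by its abundant members, Lgals3 and Apoe. Single genes gave related lists: Gpnmb with Ctsb (0.37), Cd63 with Ctsd (0.39), Apoe with Lgmn (0.42), Lgals3 with Cstb (0.45) and with the intermediate filament Vim (0.43). Trem2 had its highest non-member value with Ctsb (0.18), and Ctsl had Dab2 (0.25), an endocytic adaptor, and Arg1 (0.24), a gate marker, among its 5.

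How evenly a gene's UMIs were spread over cells differed between the genes. The 10% of thinned cells with the most Spp1 UMIs held 81.4% of them in knockout 4, against 83.4% in control 1 and 90.3% in control 3, and for Gpnmb the shares were 85.1%, 74.6% and 78.2%. For Trem2 they were 49.5%, 37.9% and 46.3%, for Apoe 40.7%, 34.5% and 31.2%, and for Lgals3 26.7%, 25.4% and 23.9%. A gene detected in few cells, such as Gpnmb, has a high share by its rarity alone. The Arg1 gate held 65.4% of all Spp1 UMIs in knockout 4, against 27.0% and 14.4% in control 1 and control 3, where it held 29.5%, 8.53% and 2.79% of all UMIs. At least 7 of the 10 genes were detected in 6.48% of thinned cells in knockout 4 (exact 95% interval 5.70% to 7.32%), against 7.96% (7.09% to 8.90%) in control 1 and 3.77% (3.33% to 4.26%) in control 3. The knockout value lay between the controls. In the Arg1 gate the shares were 13.5%, 22.4% and 13.5%, against 2.24%, 2.61% and 1.85% in the Ly6C-high gate. Of lymphocyte-gated cells 0 of 7, 2 of 19 and 0 of 18 reached 7 genes.

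Free RNA, doublets or wrongly gated cells could bear on such shares, and the part of each was not tested. Gpnmb had a UMI in 15.7% of thinned myeloid cells in knockout 4, against 21.8% in control 1 and 19.9% in control 3, and in 1 of 7, 1 of 19 and 1 of 18 lymphocyte-gated cells, which should lack it. Trem2 was detected in 34.1%, 51.0% and 37.8% of thinned myeloid cells and in 1 of 7, 6 of 19 and 6 of 18 lymphocyte-gated cells, whose median depth before thinning was 2767, 3457 and 3154 UMIs. The lymphocyte-gated cells also held 1191 CPM of Lgals3 in knockout 4, against 2832 and 2520 CPM in control 1 and control 3, so that gate held RNA of myeloid cells. Detection of Trem2 is therefore not read as expression cell by cell, and the intervals cover counting error only.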

How the data were processed

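UMI counts, not normalized, were deposited for each barcode and gene. The authors ran Cell Ranger 3.0.2 against GRCm38, per the submitters' processing notes. Cells needed 500 or more genes, with no more than 10% of UMIs mitochondrial; no doublet caller was run, and cells over 2 times the median UMIs were left out as an alternative. The series pairs no table of cell types with the cells. Arg1 and C1q gates needed at least 5 marker UMIs per 10000, and MHC class II and Ly6C-high gates at least 30. The Arg1 and C1q thresholds sit near a low point between modes of the marker level; the other 2 have no clear low point. Counts were summed per library, or per library and gate with at least 100 cells in each, and tested with edgeR 4.0.16 in R 4.3.3 (TMM, filterByExpr, glmQLFit, two-sided glmQLFTest, Benjamini-Hochberg adjustment over all genes, threshold 0.05); the script was checked on simulated data. The myeloid comparison has 1 residual degree of freedom and a common biological coefficient of variation of 15.6%. CPM use TMM-scaled totals, except marker and targeted genes, which use plain totals. Fold changes are log2 with SE; library totals after filtering ranged from 29371730 to 71367415 UMIs in myeloid cells. Alternatives were DESeq2 1.42.0, plain library totals, no low-count filter, other gate thresholds, other cells, other thinning and each library left out. Gene identifiers were matched to GENCODE M21 for 53620 of 53802 (99.7%). Promoters are from RefSeq, GRCm38.p6, with 10 of 10 genes matched.

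The 10 genes and the lists were chosen with earlier results of these data known. Named genes were all 10 members, the 2 genes of each list with the lowest p in the myeloid comparison, and the 5 other genes most correlated with each member and with their sum. At least 3 patrolling markers, leaving out Arg1-gated cells from the co-variation and leaving out cells with platelet markers were alternatives chosen after seeing the data.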

Additional observations from a re-analysis of the deposited data

Results flagged for a closer look

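The knockout effect on Apoe differed between gates by the test of the difference itself. On the log2 scale it was 0.74 (SE 0.11) higher in the C1q gate than in the Ly6C-high gate, with an edgeR adjusted p of 0.000161, and between 0.69 and 0.79 with halved or doubled gate thresholds or no low-count filter. It rests on a single knockout library and a fit with 1 residual degree of freedom. With 31.5 prior degrees of freedom, its SE and p rest largely on spread pooled across genes. In the C1q gate Alb was at 18.8 CPM in knockout 4, against 15.5 and 46.9 CPM in control 1 and control 3. In the Ly6C-high gate Alb was at 7.61 CPM, against 7.49 and 26.1 CPM, and its part was not tested.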

How the results depend on the processing

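No paired analysis was possible because the knockout and control libraries share no replicate number; gates were compared within libraries through the library term. In the myeloid comparison 119 genes were called by DESeq2, 434 without the low-count filter, 13 without cells of high UMI number, 4 without Arg1-gated cells and 38 without cells holding a platelet marker, against 23 as reported. Of the 10 genes 1 was called by DESeq2 and 3 (Spp1, Cd9 and Ctsl) without the filter. With control 1 or control 3 left out, Apoe lay between −0.44 and 0.073 and Mmp12 between −0.50 and 1.00. Mmp12 was also −0.048 without cells of high UMI number, −0.75 without Arg1-gated cells and −0.044 after thinning. Cd9 lay between 0.98 and 2.00, and those fits leave 1 sample on each side, so they are values with no test.

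Within gates, leaving out a control gave −0.46 to 0.35 for Spp1, −0.082 to 0.12 for Ctsl and −0.43 to 0.043 for Apoe among patrolling-marker cells, and −0.13 to 0.47 for Spp1 and −0.092 to 0.13 for Ctsl among ungated cells. With at least 3 patrolling markers Ctsl was −0.13 and −0.027 in these 2 gates. In the Arg1 gate Gpnmb was 0.0037 as reported and −0.0057 to −0.00092 with a control left out. It was −0.0040 by DESeq2, −0.28 with halved and −0.025 with doubled thresholds. Apoe with a control left out lay at −0.28 to 0.19 in the Arg1 gate, −0.22 to 0.33 in the C1q gate and −0.50 to 0.10 in the MHC class II gate. With doubled thresholds it was 0.054 in the Arg1 gate and 0.0091 in the MHC class II gate, and in the C1q gate −0.13 with halved thresholds and −0.031 with at least 3 patrolling markers. With halved thresholds ungated cells fell under 100 in a library and gave no value.

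Against the Ly6C-high gate, a fit with no library term called 3 of the 10 genes in the patrolling-marker gate (8 as reported) and 2 in the MHC class II gate (7 as reported). Over all 10902 genes it called 545 in the patrolling-marker gate (2311 as reported) and 867 in the MHC class II gate (2248 as reported). Gpnmb in the patrolling-marker gate was 0.017 with library totals, 0.53 with doubled thresholds and −0.16 to 0.18 with a library left out, and Syngr1 there −0.081 with halved thresholds. In the MHC class II gate Spp1 was −0.10 to 0.29 with a library left out and −0.16 with at least 3 patrolling markers, and Lgals3 0.042 with doubled thresholds. The difference between gates was called for 69 genes without the filter and 19 with doubled thresholds, against 35 as reported. The mean rho of 0.132 became 0.169 with no thinning, 0.153 at 5000 UMIs, 0.143 with Pearson's r of log counts, 0.0955 in the patrolling-marker gate and 0.120 without Arg1-gated cells. The cause of these changes was not tested. The single knockout library and the scarce Mmp12 and Syngr1 UMIs limit what can be resolved.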
